A study of Mus musculus with 8 samples.

Results

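The Wnt pathway members described here are 50 genes: ligands, receptors, R-spondins, LGR receptors, secreted inhibitors and intracellular members. They were chosen by name and not by any measured value, as the rows whose RefSeq transcript belongs to a Wnt, Fzd, Sfrp, Dkk or Rspo gene with a number, or to Lrp5, Lrp6, Lgr4, Lgr5, Lgr6, Axin1, Axin2, Ctnnb1, Tcf7 or Lef1. This rule found 52 rows, and rows with identical values on all 8 arrays counted once, which left 50 of 18172 distinct rows (from 22523 rows without the control rows of the array). The rows of Fzd5 and Axin1 each stand for more than 1 row of identical values. Of 52 gene symbols in the reference that match the rule, Fzd8 and Fzd10os had no row. By role the members were 19 ligands, 11 receptors, 7 R-spondins and LGR receptors, 8 secreted inhibitors and 5 intracellular members.

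Total RNA of 3 lines of p53-null mouse fetal fibroblasts was hybridized to Affymetrix arrays after 48 h of growth with 65 µM ZnCl2. Ind-8 (3 arrays, ASYM) holds a p53 cDNA behind a metallothionein promoter, which zinc switches on, and is the line in which divisions become asymmetric. Con-3 (3 arrays, SYM) lacks the p53 cDNA and is a vector control by the paper and the congenic parent by the sample labels. tI-3 (2 arrays, p53SYM) was made from Ind-8 by adding a constitutive IMPDH II cDNA, so that p53 is induced while divisions remain symmetric. The 3 lines grew in medium with 10% dialyzed serum and 5 µg/ml puromycin, and G418 was added for tI-3 alone, at a concentration for which the labels and the paper differ. Each line is 1 clone, so a difference between states and a difference between lines cannot be told apart.

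Wnt ligands are secreted proteins that bind Frizzled receptors together with the co-receptors Lrp5 or Lrp6, which stops the destruction complex built on Axin from degrading beta-catenin, so that beta-catenin can act with the TCF and LEF factors in the nucleus. R-spondins bind LGR receptors and keep Frizzled receptors on the cell surface, whereas Sfrp and Dkk proteins are secreted and bind ligands or co-receptors. Lgr5 and Lgr6 are known as markers of stem cells in several epithelia, and fibroblasts are a source of Wnt ligands, R-spondins and secreted inhibitors in many tissues.

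The values are log2 signals from the authors' RMA processing, with medians from 6.13 to 6.20 over the 8 arrays, and the number of arrays limits the precision. Probe signals of different genes are not comparable as RNA amounts, so levels are compared between arrays for 1 gene at a time. The Affymetrix hybridization controls, which are spiked in before hybridization, split the arrays: they averaged 10.24 to 10.46 on Con-3 replicate 3 and both tI-3 arrays and 9.88 to 10.00 on the other arrays. Con-3 replicate 3 also stood apart on the 18S ribosomal RNA control rows, at 10.63 against 5.58 to 6.46 on the other arrays. Results that change without an array, or in a limma fit that blocks the arrays by this split (the control-block fit), are given with those values. Both tI-3 arrays lie in 1 block with a single Con-3 array, so this fit compares Ind-8 with Con-3 on replicates 1 and 2 of Con-3 and reaches tI-3 through Con-3 replicate 3 alone. For Ind-8 against Con-3 it is therefore the same fit as leaving out Con-3 replicate 3 and adds no further check. Where a tI-3 array is left out, the remaining one is assumed to vary like the arrays of the other lines.

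Ind-8 against Con-3 asks what differs between the asymmetric and the p53-null state, Ind-8 against tI-3 what differs between states that both have induced p53, and tI-3 against Con-3 what differs between both symmetric states. The 3 comparisons share arrays in pairs, so their values are set side by side and are not independent. A row was called by limma at a Benjamini-Hochberg adjusted p under 0.05 over all 18172 rows. In Ind-8 against Con-3, limma called 5 of 50 Wnt genes higher (10%) and 3 lower (6%), where 10.8% and 10.2% of all rows were called. Against tI-3, Ind-8 had 6 called higher (12%) and 4 lower (8%), where 15.9% and 14.8% of all rows were called. Of the changes in tI-3 against Con-3, limma called 5 higher (10%) and 6 lower (12%), where 10.3% and 15.6% of all rows were called. These shares lie near or below those of all rows, so the counts are not a result about the pathway. The median log2 change over the 50 genes was -0.01, -0.08 and 0.08 in the 3 comparisons, beside -0.06, -0.06 and 0.03 over all rows. Leaving out tI-3 replicate 1 lowered the number called higher in Ind-8 against tI-3 to 3 and in tI-3 against Con-3 to 3, and leaving out tI-3 replicate 2 lowered both to 2. The number called lower in Ind-8 against tI-3 fell to 2 without Ind-8 replicate 1, to 1 without Ind-8 replicate 2 and to 0 by limma without tI-3 replicate 2, where 10 were lower with all arrays at an unadjusted p under 0.05 and 0 by the rank product. Of all rows, 4151 of 18172 were lower in Ind-8 against tI-3 at an unadjusted p under 0.05 with all arrays. In the control-block fit, limma called 1 higher and 0 lower in Ind-8 against tI-3, and 2 higher and 3 lower in tI-3 against Con-3. The shares of all rows called under these other settings are not given beside these counts. The counts are therefore not read as a result about the Wnt genes.

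The rank product, the test that the study's methods name, called 2 of 50 Wnt genes (4%) in each comparison at a percent false positive under 0.05, beside 3.64%, 1.93% and 2.26% of all rows. They were Lgr6 (0.0499) and Dkk2 (0.0221) in Ind-8 against Con-3, Sfrp2 (0.0107) and Dkk3 (0.0495) in Ind-8 against tI-3, and Sfrp2 (0.000882) and Dkk3 (0.0396) in tI-3 against Con-3. With a log2 change of at least 1 asked for besides, limma called 0 Wnt genes in Ind-8 against Con-3. There 11 of 50 had an unadjusted p under 0.05, beside 6005 of 18172 rows, and the rank product called 2. With the same minimum change, limma called Sfrp2 and Rspo2 in Ind-8 against tI-3, and Sfrp2 and Lgr6 in tI-3 against Con-3. The shares of all rows called in this way were 2.09%, 2.97% and 3.2%. Across the 3 comparisons, 16 of 50 genes were called by limma in at least 1 comparison, 4 of them in 1, 11 in 2 and 1 (Sfrp2) in 3, which makes 29 called changes. The share of genes called in at least 1 comparison was 32%, beside 46.1% of all rows. By role, 4 of 19 ligands, 7 of 11 receptors, 3 of 7 R-spondins and LGR receptors, 2 of 8 secreted inhibitors and 0 of 5 intracellular members were called by limma, or 21.1%, 63.6%, 42.9%, 25% and 0% of these small groups. At an unadjusted p under 0.05 the intracellular members gave 1, 0 and 2 changes in the 3 comparisons, and by the rank product 0. Of all 18172 rows, 6005, 7922 and 6897 had an unadjusted p under 0.05.

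Signal was called near background where the mean of a line was under 4.29, the 25th percentile of the row means. By this limit 11 of 50 Wnt genes (22%) were near background in all 3 lines, beside 3838 of 18172 rows (21.1%). They were 5 ligands, 1 receptor, 2 R-spondins and 3 secreted inhibitors, and a further 6 genes were near background in 1 or 2 lines. At the 40th percentile, 5.20, the number near background in all 3 lines was 26 (52%), beside 36.8% of all rows. Where only 1 of the compared lines is near background, a log2 change may understate the difference in RNA. The row means ran from 3.10 for Wnt3 to 7.11 for Wnt10b among the ligands and from 4.02 for Fzd4 to 9.64 for Fzd2 among the receptors. Among the R-spondins and LGR receptors they ran from 3.98 for Rspo4 to 10.11 for Rspo2, among the inhibitors from 3.54 for Dkk1 to 10.50 for Sfrp2, and among the intracellular members from 4.64 for Axin2 to 11.66 for Ctnnb1.

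**Figure D1:**
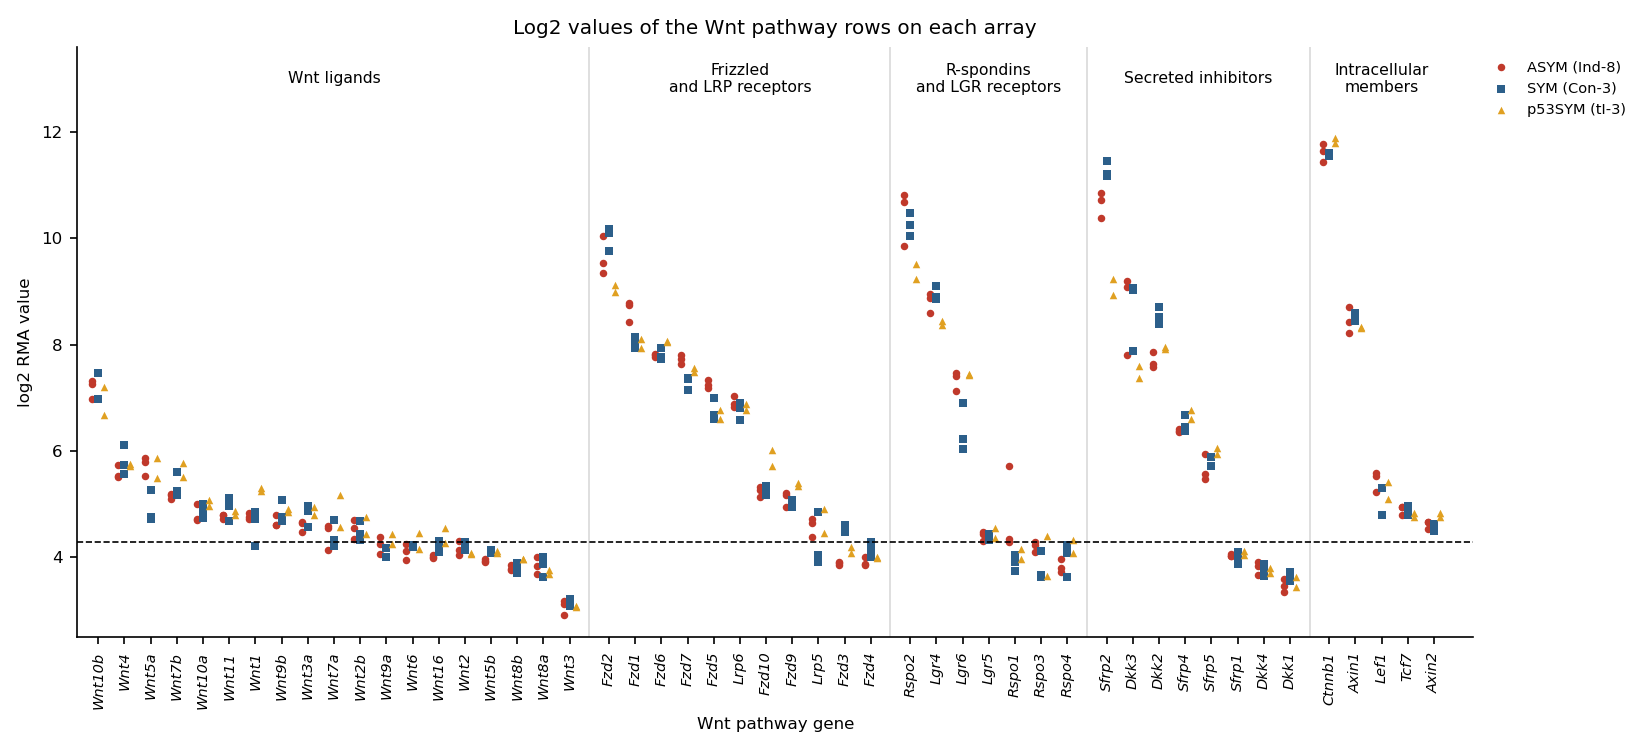
Each point is the log2 RMA value (y axis) of 1 Wnt gene (x axis, grouped by role and ordered by mean) on 1 array, with circles for Ind-8, squares for Con-3 and triangles for tI-3, and the dashed line is the near-background limit of 4.29. Among the 19 ligands Wnt10b alone has a mean over all arrays above 7, at 7.11, and both tI-3 arrays lie below the other 6 for Sfrp2 and Rspo2.

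Among the ligands, Wnt10b, which can drive the beta-catenin branch of the pathway, had the brightest row. It read 6.98, 7.32 and 7.27 on the Ind-8 arrays, 6.97, 7.47 and 6.97 on the Con-3 arrays, and 7.20 and 6.67 on the tI-3 arrays. The lines overlapped, and Wnt10b was called in none of the 3 comparisons by limma. Wnt5a, a ligand best known for signalling without beta-catenin, read 5.87, 5.80 and 5.53 in Ind-8, 5.27, 4.73 and 4.75 in Con-3, and 5.86 and 5.49 in tI-3. All Ind-8 and tI-3 arrays lay above all Con-3 arrays, of which replicate 1 was the highest, while Ind-8 and tI-3 overlapped. Wnt5a was higher in Ind-8 than in Con-3 by 0.82 on the log2 scale (standard error 0.163, 1.77-fold, limma adjusted p 0.00527). That call held with each array left out in turn (limma adjusted p 0.0246 without Con-3 replicate 3). In tI-3 it was higher than in Con-3 by 0.76 (standard error 0.182, 1.69-fold, limma adjusted p 0.0119), with both tI-3 arrays above all 3 Con-3 arrays, and without tI-3 replicate 1 the limma adjusted p was 0.108.

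Wnt1, a ligand of the beta-catenin branch, read 4.75, 4.83 and 4.72 in Ind-8, 4.22, 4.73 and 4.86 in Con-3, and 5.25 and 5.30 in tI-3. Both tI-3 arrays were above the other 6, which overlapped, and Con-3 replicate 1 was under the near-background limit. The log2 change of tI-3 against Con-3 was 0.67 (standard error 0.162, limma adjusted p 0.0121). That call was lost without tI-3 replicate 1 or 2 (log2 changes of 0.70 and 0.64) and in the control-block fit, where the change was 0.42 (limma adjusted p 0.193). The log2 change of Ind-8 against tI-3 was -0.51 (standard error 0.162, limma adjusted p 0.0368), all 3 Ind-8 arrays being below both tI-3 arrays. This call was lost without Ind-8 replicate 1, 2 or 3 (limma adjusted p 0.0644 to 0.0809) and without tI-3 replicate 1 or 2 (log2 changes of -0.54 and -0.48). It was also lost after quantile normalization of the arrays (limma adjusted p 0.123) and in the control-block fit, where the change was -0.13 (limma adjusted p 0.821). Wnt7b and Wnt16 were also lower in Ind-8 than in tI-3, without overlap between the arrays. For Wnt7b the log2 change was -0.49 (limma adjusted p 0.0233), and the call was lost without Ind-8 replicate 1 or 2 (limma adjusted p 0.0504 and 0.0645). It was also lost without tI-3 replicate 2, where the change was -0.36. In the control-block fit the log2 change was -0.10 (limma adjusted p 0.821). For Wnt16, whose mean was near background in Ind-8 and Con-3, it was -0.40 (limma adjusted p 0.0233), and the call was lost without Ind-8 replicate 2 or 3 or tI-3 replicate 2 (limma adjusted p 0.0509 to 0.211), after quantile normalization (0.203) and in the control-block fit (0.169). In all, limma called 1 of 19 ligands higher in Ind-8 than in Con-3, 3 lower in Ind-8 than in tI-3 and 2 higher in tI-3 than in Con-3. Of all rows, limma called 10.8%, 14.8% and 10.3% in these directions, so the counts are not read as a result about the ligands. In the opposite directions limma called 0, as did the rank product, and 0 had an unadjusted p under 0.05.

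Among the 11 receptors, limma called 3 higher and 1 lower in Ind-8 than in Con-3, 3 higher and 1 lower in Ind-8 than in tI-3, and 2 higher and 2 lower in tI-3 than in Con-3. The shares of all rows were 10.8% and 10.2%, 15.9% and 14.8%, and 10.3% and 15.6%. Counts of so few genes are not read as a result about the receptors. Frizzled proteins are the receptors that Wnt ligands bind. Fzd1 read 8.43, 8.74 and 8.78 in Ind-8, 7.93, 8.14 and 8.0 in Con-3, and 8.10 and 7.93 in tI-3. All 3 Ind-8 arrays were above the other 5, and Con-3 and tI-3 overlapped. Fzd1 was higher in Ind-8 than in Con-3 by 0.63 (standard error 0.113, 1.55-fold, limma adjusted p 0.00307), which held with each array left out (limma adjusted p 0.0134 without Con-3 replicate 3). It was higher in Ind-8 than in tI-3 by 0.64 (standard error 0.127, 1.56-fold, limma adjusted p 0.00486). Without tI-3 replicate 2, where the call was lost, it was higher by 0.56, and in the control-block fit by 0.61 (limma adjusted p 0.172). Fzd5 read 7.24, 7.33 and 7.19 in Ind-8, 6.99, 6.60 and 6.67 in Con-3, and 6.60 and 6.78 in tI-3. Here too the Ind-8 arrays were above the other 5, which overlapped, with Con-3 replicate 1 the nearest to Ind-8. The log2 change of Fzd5 was 0.50 against Con-3 (standard error 0.115, limma adjusted p 0.0107), which held with each array left out (limma adjusted p 0.0421 without Con-3 replicate 3). Against tI-3 it was 0.56 (standard error 0.128, limma adjusted p 0.00926), with limma adjusted p of 0.0677 without tI-3 replicate 1 and 0.31 in the control-block fit.

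Fzd2 had the brightest receptor row, at 9.35, 9.53 and 10.04 in Ind-8, 9.76, 10.11 and 10.18 in Con-3, and 8.99 and 9.12 in tI-3. Both tI-3 arrays were below the other 6, while Ind-8 replicate 3 lay among the Con-3 arrays. In tI-3 the level was lower than in Con-3, with a log2 change of -0.96 (standard error 0.191, limma adjusted p 0.00441), which held with each array left out and in the control-block fit (limma adjusted p 0.0212). Ind-8 was above tI-3 by 0.58 (standard error 0.191, limma adjusted p 0.0413), and this call was lost without Ind-8 replicate 2 or 3, Con-3 replicate 2 or tI-3 replicate 1 or 2 (limma adjusted p 0.0554 to 0.169). It was also lost after centring each array on its median (limma adjusted p 0.0514), after quantile normalization (0.143) and in the control-block fit (0.194). Ind-8 against Con-3 was not called, at -0.38 (limma adjusted p 0.152), but was without Ind-8 replicate 3 (0.0186).

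Fzd3 read 3.91, 3.85 and 3.89 in Ind-8, 4.50, 4.48 and 4.60 in Con-3, and 4.09 and 4.19 in tI-3. The 3 lines did not overlap, and only Con-3 had a mean above the near-background limit. The log2 change of Ind-8 against Con-3 was -0.64 (standard error 0.084, limma adjusted p 0.000552), which held with each array left out (limma adjusted p 0.003 without Con-3 replicate 3). The log2 change of tI-3 against Con-3 was -0.38 (standard error 0.0939, limma adjusted p 0.0128), and without tI-3 replicate 1 the limma adjusted p was 0.0849. Ind-8 against tI-3 was not called, at -0.26 (limma adjusted p 0.059), but was after centring (0.0321). Fzd10 read 5.14, 5.26 and 5.33 in Ind-8, 5.17, 5.35 and 5.30 in Con-3, and 5.71 and 6.02 in tI-3. Both tI-3 arrays were above the other 6, which overlapped. Fzd10 was higher in tI-3 than in Con-3 by 0.59 (standard error 0.119, limma adjusted p 0.00468), with limma adjusted p of 0.0607 without tI-3 replicate 2 and 0.0513 in the control-block fit. Ind-8 against tI-3 gave -0.62 (standard error 0.119, limma adjusted p 0.00398), with limma adjusted p of 0.0503 without tI-3 replicate 2 and 0.159 in the control-block fit. Called with smaller changes were Fzd7, higher in all 3 Ind-8 arrays than in all 3 Con-3 arrays by 0.43 (limma adjusted p 0.0103, held with each array left out), and Fzd9, higher in both tI-3 arrays than in all 3 Con-3 arrays by 0.36 (limma adjusted p 0.0293). The Fzd9 call was lost without Con-3 replicate 1 or 2 or tI-3 replicate 1 or 2 (limma adjusted p 0.0729 to 0.124), after quantile normalization (0.084) and in the control-block fit (0.213). With all arrays, Fzd4, Fzd6, Lrp5 and Lrp6 were called in none of the 3 comparisons.

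Promoters are shown for the genes with values in every array whose call in Ind-8 against Con-3 held with each array left out in turn, as far as RefSeq entries were at hand. Of 50 Wnt genes, 33 had an entry in the RefSeq promoter table, with 41 promoters of 300 bases, from 250 before to 50 after the gene start in the mouse build GRCm38.p6. Wnt5a and Fzd3 had no entry. The letters CTTTGA, the core of the TCF and LEF motif, were searched on both strands, as was the p53 half-site, and capitals mark a match. CTTTGA was in the promoters of 5 Wnt genes (Lef1, Fzd1, Wnt5b, Wnt11 and Dkk1), 12.2% of the 41 promoters and 16% of all 32851 promoters in the table. The p53 half-site was in that of Wnt11 alone, 2.44% of the 41 promoters and 8.36% of all. The median GC content was 67.7% for Wnt promoters and 52.7% for all promoters. A match describes letters in this window and no more. The Fzd1 promoter is at chr5:4758167-4758466 and the Fzd5 promoter at chr1:64737701-64738000, both on the minus strand and printed 5′ to 3′ on that strand.
Fzd1: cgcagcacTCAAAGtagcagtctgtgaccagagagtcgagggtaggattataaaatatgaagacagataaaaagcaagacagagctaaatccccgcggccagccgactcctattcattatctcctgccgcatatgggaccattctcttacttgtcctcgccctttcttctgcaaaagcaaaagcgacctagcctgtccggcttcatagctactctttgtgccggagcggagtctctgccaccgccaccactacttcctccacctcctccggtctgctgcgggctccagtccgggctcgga
Fzd5: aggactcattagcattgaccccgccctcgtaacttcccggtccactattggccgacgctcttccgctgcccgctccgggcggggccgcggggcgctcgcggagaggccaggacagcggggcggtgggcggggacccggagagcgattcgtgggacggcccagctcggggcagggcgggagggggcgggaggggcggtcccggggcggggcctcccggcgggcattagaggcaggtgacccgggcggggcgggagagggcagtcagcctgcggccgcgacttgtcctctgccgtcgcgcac

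LGR receptors bind R-spondins, and Lgr6 was the one of them called in both comparisons with Con-3. Lgr6 read 7.41, 7.46 and 7.12 in Ind-8, 6.90, 6.03 and 6.23 in Con-3, and 7.45 and 7.43 in tI-3. All Ind-8 and tI-3 arrays were above all 3 Con-3 arrays, of which replicate 1 was the highest, and the tI-3 arrays lay within the range of Ind-8. Lgr6 was higher in Ind-8 than in Con-3 by 0.94 (standard error 0.191, 1.92-fold, limma adjusted p 0.00574) and in tI-3 than in Con-3 by 1.05 (standard error 0.213, 2.07-fold, limma adjusted p 0.00497). Both calls held with each array left out in turn, and limma gave Ind-8 against Con-3 an adjusted p of 0.0267 without Con-3 replicate 3. The call of tI-3 against Con-3 also held in the control-block fit (limma adjusted p 0.0267). The rank product gave a percent false positive of 0.0499 for Ind-8 against Con-3 and 0.102 for tI-3 against Con-3. Ind-8 against tI-3 was not called, at -0.11 (limma adjusted p 0.729). Lgr6 was thus high in Ind-8 and in tI-3, which both hold the p53 cDNA and are of 1 descent, and these properties cannot be told apart. The fibroblasts of a culture were measured in bulk, so fewer cells with the transcript and less transcript per cell cannot be told apart, for Lgr6 or any other gene. The Lgr6 promoter, at chr1:135105227-135105526 on the minus strand, held neither motif.
Lgr6: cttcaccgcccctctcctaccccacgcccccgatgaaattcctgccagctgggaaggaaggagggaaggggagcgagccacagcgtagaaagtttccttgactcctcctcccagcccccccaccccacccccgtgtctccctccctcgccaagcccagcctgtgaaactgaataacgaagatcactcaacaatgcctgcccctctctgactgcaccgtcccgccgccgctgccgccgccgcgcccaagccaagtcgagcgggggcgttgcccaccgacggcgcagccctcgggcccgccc

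Lgr5 read 4.48, 4.30 and 4.44 in Ind-8, 4.43, 4.33 and 4.44 in Con-3, and 4.37 and 4.55 in tI-3. The 3 lines overlapped, all arrays lay just above the near-background limit, and limma called Lgr5 in none of the 3 comparisons. Lgr4, the LGR receptor with the brightest row, read 8.96, 8.87 and 8.59 in Ind-8, 9.10, 8.89 and 8.86 in Con-3, and 8.44 and 8.37 in tI-3. The tI-3 arrays were the lowest, and Ind-8 and Con-3 overlapped. The log2 change of tI-3 against Con-3 was -0.55 (standard error 0.128, limma adjusted p 0.0107), with limma adjusted p of 0.0811 without tI-3 replicate 2 and 0.123 in the control-block fit. Ind-8 was above tI-3 by 0.41 (standard error 0.128, limma adjusted p 0.0362). That call was lost without Ind-8 replicate 1 or 2, Con-3 replicate 2 or tI-3 replicate 1 or 2 (limma adjusted p 0.0515 to 0.180), after centring (0.0518), after quantile normalization (0.142) and in the control-block fit (0.551).

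Rspo2, a secreted ligand of the LGR receptors, read 9.86, 10.68 and 10.81 in Ind-8, 10.05, 10.26 and 10.48 in Con-3, and 9.52 and 9.23 in tI-3. Both tI-3 arrays were below the other 6, and Ind-8 replicate 1 was the lowest of those. Rspo2 was higher in Ind-8 than in tI-3 by 1.07 (standard error 0.246, 2.11-fold, limma adjusted p 0.00941), with limma adjusted p of 0.0918 without tI-3 replicate 2 and 0.103 in the control-block fit. It was lower in tI-3 than in Con-3, at -0.89 (standard error 0.246, limma adjusted p 0.0233), a call lost without Con-3 replicate 2 or 3 or tI-3 replicate 1 or 2 (limma adjusted p 0.0550 to 0.170), after quantile normalization (0.0572) and in the control-block fit (0.0566). Rspo1, chosen after its values were seen, read 5.72 in Ind-8 replicate 1 and 4.28 and 4.35 in replicates 2 and 3, against 3.74 to 4.05 in Con-3. The Con-3 mean, 3.90, was near background (under 4.29), so each change given here may understate the difference in RNA. A single Ind-8 array was far above the others, and the change of 0.88 was not called (limma adjusted p 0.0681). Without that array it was 0.41 and called (limma adjusted p 0.0403), and it was also called without Ind-8 replicate 2 (0.0407) or 3 (0.0396). For the 7 genes of this role, limma called 1 higher in Ind-8 than in Con-3, 2 higher in Ind-8 than in tI-3, and 1 higher and 2 lower in tI-3 than in Con-3. It called 0 lower in Ind-8 than in Con-3 or in tI-3, where 0 and 1 had an unadjusted p under 0.05 and the rank product called 0. The shares of all rows were 10.8% higher and 10.2% lower, 15.9% and 14.8%, and 10.3% and 15.6% in the 3 comparisons. Counts of so few genes are not read as a result about this role.

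**Figure D2:**
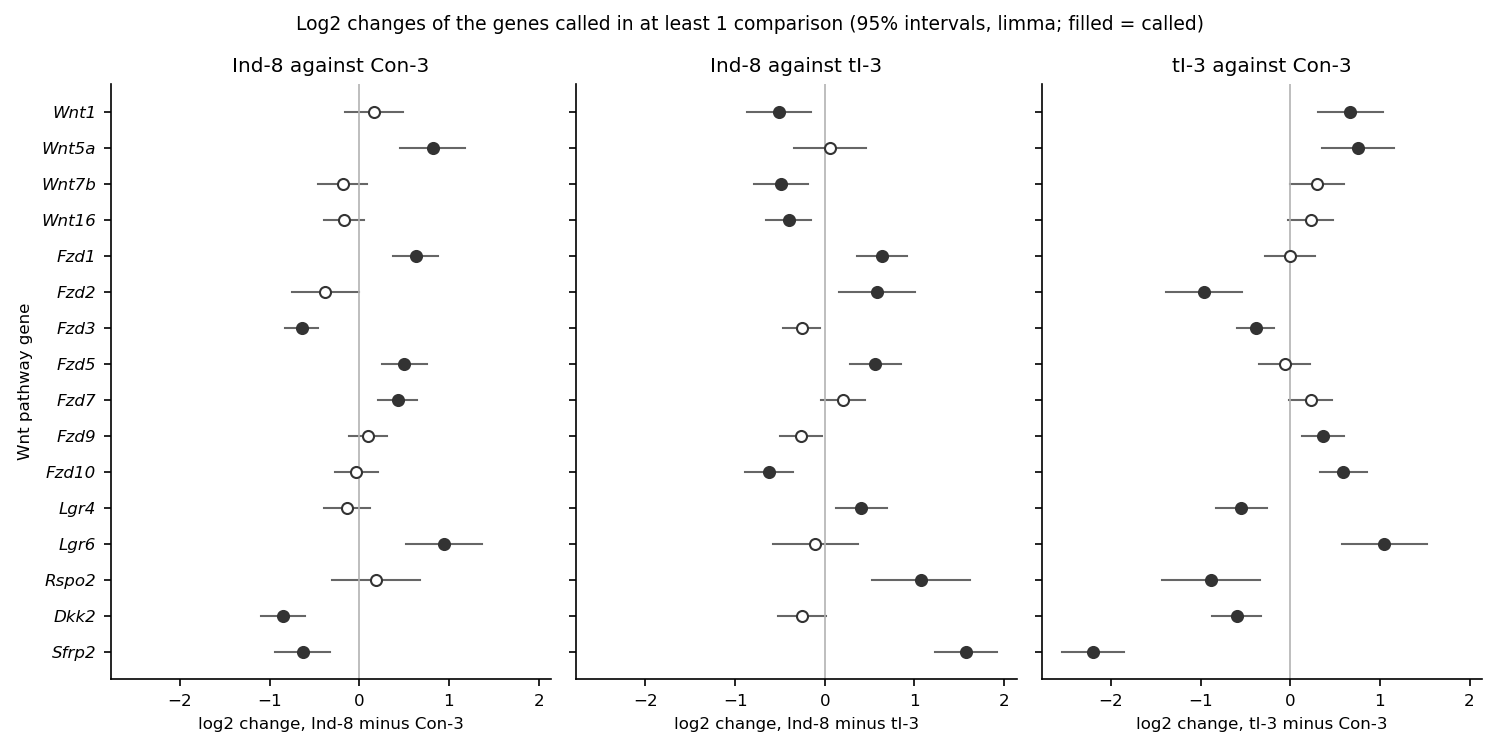
The log2 change (x axis) of each of the 16 Wnt genes called in at least 1 comparison (y axis) is shown with its 95% interval from limma, in 1 panel per comparison, with filled circles for called changes. Sfrp2 lies farthest from 0, at 1.57 in Ind-8 against tI-3 and -2.20 in tI-3 against Con-3, and Lgr6 lies at 0.94, -0.11 and 1.05 in the 3 panels.

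Among the secreted inhibitors, Sfrp2, which binds Wnt ligands outside the cell, had the brightest row and the largest change of the 50 genes. It read 10.73, 10.38 and 10.86 in Ind-8, 11.18, 11.22 and 11.46 in Con-3, and 8.94 and 9.23 in tI-3. The 3 lines did not overlap: Con-3 was the highest, Ind-8 lay between and tI-3 was the lowest. The log2 change was -2.20 in tI-3 against Con-3 (standard error 0.156, limma adjusted p 1.15e-05) and 1.57 in Ind-8 against tI-3 (standard error 0.156, 2.97-fold, limma adjusted p 0.000123). Both calls held with each array left out and in all 12 other settings tried, the control-block fit and the rank product included. In Ind-8 against Con-3 the change was -0.63 (standard error 0.139, limma adjusted p 0.00884), which held with each array left out (limma adjusted p 0.0382 without Con-3 replicate 3). The rank product gave a percent false positive of 0.0955.

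Dkk2, which binds the co-receptors Lrp5 and Lrp6, read 7.63, 7.86 and 7.58 in Ind-8, 8.70, 8.53 and 8.39 in Con-3, and 7.96 and 7.92 in tI-3. All Ind-8 and tI-3 arrays were below all 3 Con-3 arrays, and the tI-3 arrays were just above the Ind-8 arrays. The log2 change was -0.85 in Ind-8 against Con-3 (standard error 0.110, limma adjusted p 0.00052), with limma adjusted p of 0.0011 without Con-3 replicate 3. It was -0.60 in tI-3 against Con-3 (standard error 0.123, limma adjusted p 0.00535), with 0.0943 in the control-block fit. Both calls held with each array left out in turn. Dkk3, a relative of the Dkk proteins and named because the rank product called it, read 7.80, 9.19 and 9.09 in Ind-8, 7.89, 9.02 and 9.06 in Con-3, and 7.60 and 7.37 in tI-3. Replicate 1 of both Ind-8 and Con-3 lay far below the other replicates of its line and close to tI-3, without overlap with it. By limma the change was not called in Ind-8 against tI-3 (1.21, limma adjusted p 0.0509) or in tI-3 against Con-3 (-1.17, limma adjusted p 0.0642). It was called in the first without Ind-8 replicate 1 (limma adjusted p 0.00803) or Con-3 replicate 1 (0.0254) and in the second without Con-3 replicate 1 (0.0159) or Ind-8 replicate 1 (0.0186). A limma fit to the compared lines alone also called it (adjusted p 0.0387 and 0.0282), and a fit with an intensity trend (0.0423) or to the rows above the 25th percentile (0.0451) called it in Ind-8 against tI-3. Of the 8 inhibitors, limma called 2 lower in Ind-8 than in Con-3, 1 higher in Ind-8 than in tI-3 and 2 lower in tI-3 than in Con-3. Of all rows, limma called 10.2%, 15.9% and 15.6% in these directions. In the opposite directions limma called 0 inhibitors, where the unadjusted p was under 0.05 for 0, 2 and 0 and the rank product called 0. Counts of so few genes are not read as a result about the inhibitors.

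The promoters of both called inhibitors held neither motif and lie on the plus strand, Dkk2 at chr3:132085042-132085341 and Sfrp2 at chr3:83766071-83766370.
Dkk2: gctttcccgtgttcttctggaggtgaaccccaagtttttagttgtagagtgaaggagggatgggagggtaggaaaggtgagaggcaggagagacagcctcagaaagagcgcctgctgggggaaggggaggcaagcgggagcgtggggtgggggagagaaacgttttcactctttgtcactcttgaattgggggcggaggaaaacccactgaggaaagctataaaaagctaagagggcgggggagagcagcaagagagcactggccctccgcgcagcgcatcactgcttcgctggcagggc
Sfrp2: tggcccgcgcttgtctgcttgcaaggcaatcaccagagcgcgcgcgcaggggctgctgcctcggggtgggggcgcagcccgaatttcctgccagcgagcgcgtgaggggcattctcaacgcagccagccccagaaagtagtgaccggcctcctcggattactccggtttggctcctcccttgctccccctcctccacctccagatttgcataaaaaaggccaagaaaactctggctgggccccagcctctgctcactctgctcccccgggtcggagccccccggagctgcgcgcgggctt

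**Figure D3:**
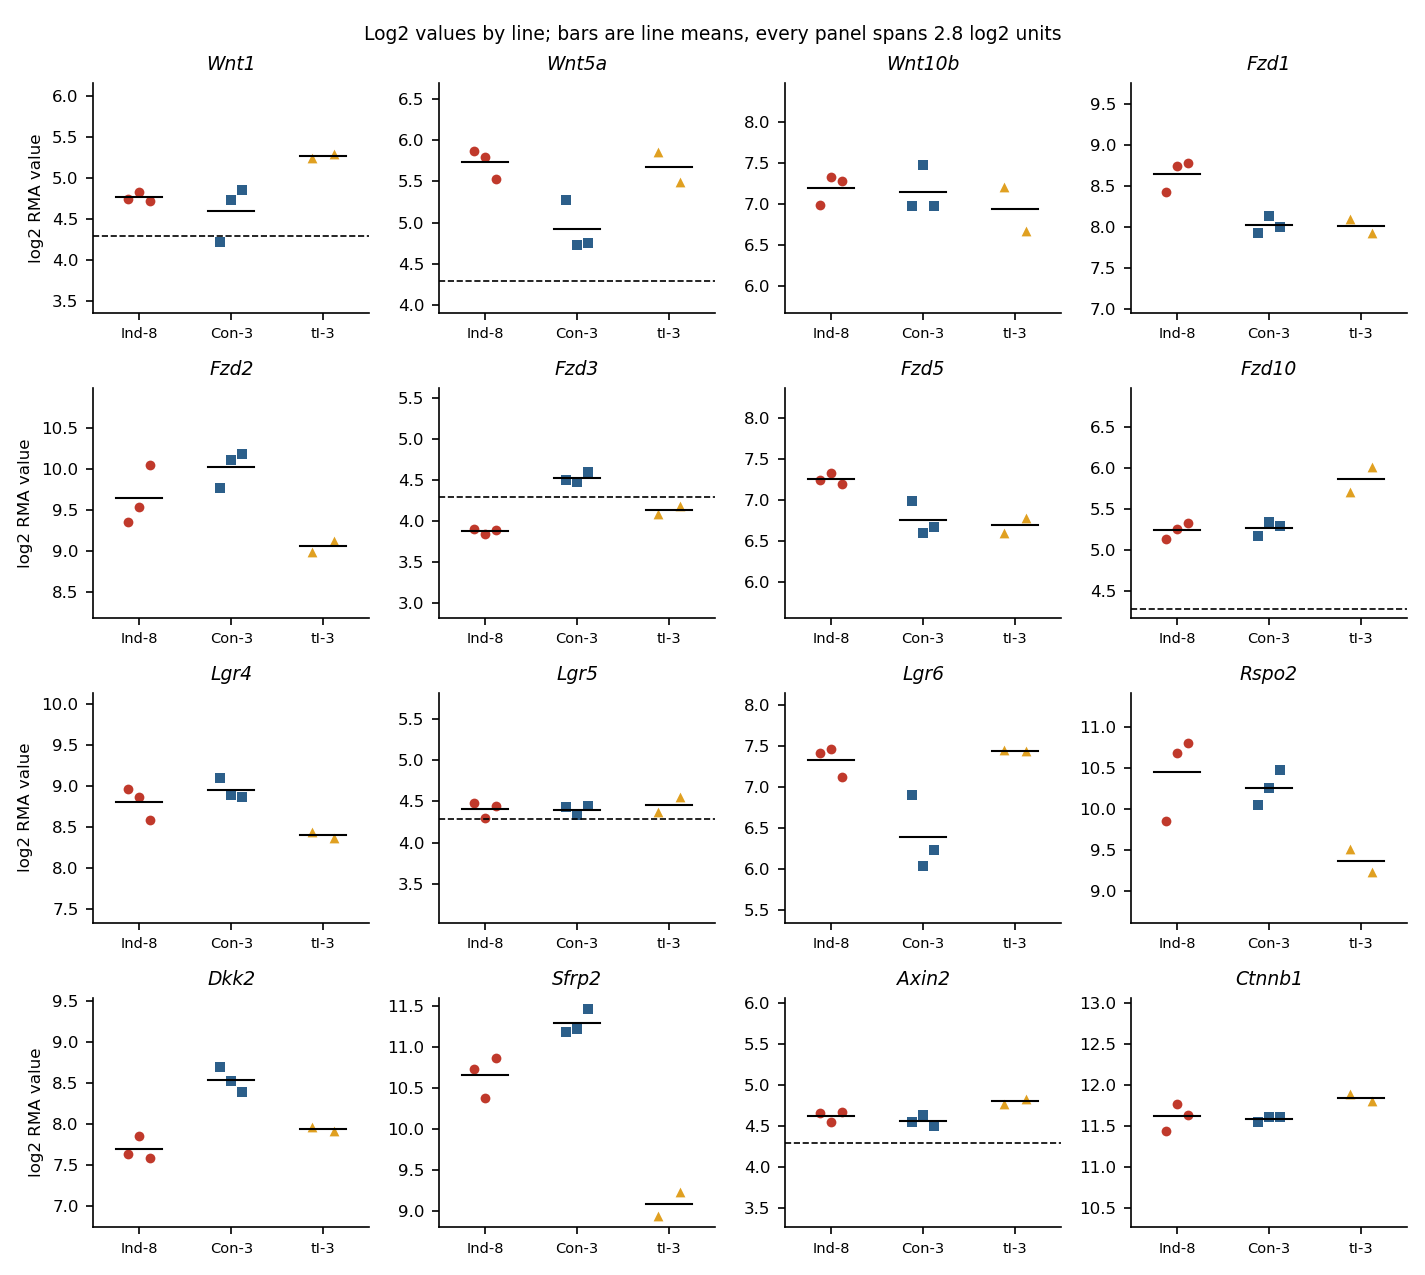
Log2 RMA values (y axis) of 16 genes are plotted by line (x axis), each point an array and each bar the mean of a line. These are the genes chosen by rule for values in every array, and the near-background limit of 4.29 is dashed where it falls in the panel. Lgr6 is at 7.12 or above in Ind-8 and tI-3 and at 6.90 or below in Con-3, and Sfrp2 is at 9.23 or below in tI-3 and at 10.38 or above in the other lines.

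Among the intracellular members, Ctnnb1, which encodes beta-catenin, read 11.44, 11.77 and 11.64 in Ind-8, 11.55, 11.61 and 11.61 in Con-3, and 11.89 and 11.80 in tI-3. Both tI-3 arrays were above the other 6, which overlapped. The change of 0.25 in tI-3 against Con-3 was not called (limma adjusted p 0.121) but was after quantile normalization (0.0349). Axin2, a scaffold of the destruction complex and a widely used readout of beta-catenin activity, read 4.66, 4.54 and 4.67 in Ind-8, 4.54, 4.63 and 4.49 in Con-3, and 4.76 and 4.83 in tI-3. Again both tI-3 arrays were highest and the other 6 overlapped, and all 8 arrays lay between the near-background limit of 4.29 and the 40th percentile of 5.20. The change of 0.24 in tI-3 against Con-3 was not called (limma adjusted p 0.0944). Lef1, a nuclear partner of beta-catenin chosen after its values were seen, read 5.58, 5.53 and 5.23 in Ind-8, 5.31, 4.80 and 4.79 in Con-3, and 5.41 and 5.09 in tI-3. Ind-8 and Con-3 overlapped through Con-3 replicate 1, and the change of 0.48 was not called (limma adjusted p 0.0558) but was without Con-3 replicate 1 (0.0101) or Ind-8 replicate 3 (0.037) and among the rows above the 25th percentile (0.0466).

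Some changes that were not called with all arrays were called without 1 of them. In Ind-8 against Con-3, Lrp5 went from 0.31 (limma adjusted p 0.369) to 0.60 (0.0283) without Con-3 replicate 2, and Rspo2 from 0.19 (0.598) to 0.48 (0.0479) without Ind-8 replicate 1. Lrp5 also went from 0.41 (limma adjusted p 0.255) to 0.70 (0.0188) in tI-3 against Con-3 without Con-3 replicate 2, which read 4.85 against 4.04 and 3.92 on the other Con-3 arrays. The mean of Lrp5 in Con-3, 4.27, was near background, so its changes may understate the difference in RNA. Without Con-3 replicate 3, that comparison called Fzd6 at 0.31 (limma adjusted p 0.0484, and 0.0872 with all arrays) and Wnt7b at 0.43 (0.0275, and 0.136 with all arrays). Wnt7a, at 4.57 and 5.18 in tI-3, was called without tI-3 replicate 1 in Ind-8 against tI-3 (limma adjusted p 0.0439, and 0.126 with all arrays) and in tI-3 against Con-3 (0.0433, and 0.129 with all arrays). Lower in Ind-8 than in tI-3 were Sfrp5 without Ind-8 replicate 3 (-0.48, limma adjusted p 0.0144), Sfrp4 without Con-3 replicate 3 (-0.31, 0.0399) and Rspo4 without Con-3 replicate 1 (-0.38, 0.0367). With all arrays limma gave these an adjusted p of 0.0869, 0.0586 and 0.109. A Con-3 array enters these changes of Sfrp4 and Rspo4 only through the shared estimate of the spread. The mean of Rspo4 was near background in all 3 lines. The compared lines alone also gave a call of Rspo4 (limma adjusted p 0.0478). Centring also gave calls in Ind-8 against tI-3 of Fzd6 (-0.30, limma adjusted p 0.0332), Fzd9 (-0.31, 0.0446) and Sfrp4 (-0.35, 0.0294). Quantile normalization gave calls there of Fzd6 (-0.44, limma adjusted p 0.0115), Sfrp4 (-0.43, 0.0181), Dkk2 (-0.44, 0.0202) and Ctnnb1 (-0.34, 0.0461). In tI-3 against Con-3 it gave calls of Fzd6 (0.38, limma adjusted p 0.0212) and Fzd7 (0.37, 0.0199).

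Changes depended on the level of a row in the comparisons with tI-3, over all rows as well as over the Wnt genes. Split by mean level into 4 classes of 4543 rows, the median log2 change of all rows in Ind-8 against tI-3 was -0.14 in the dimmest class, -0.22 in the second class, 0.13 in the third and 0.13 in the brightest. For tI-3 against Con-3 it was 0.07, 0.14, -0.09 and -0.14 in the same order, and in Ind-8 against Con-3 it was -0.07, -0.09, 0.00 and -0.02. The Wnt genes called in Ind-8 against tI-3 followed the same order of level: Wnt1, Wnt7b, Wnt16 and Fzd10, all from the dimmer classes, were lower in Ind-8 than in tI-3, whereas Fzd1, Fzd2, Fzd5, Lgr4, Rspo2 and Sfrp2, all from the brighter classes, were higher. Over all rows, limma called 27.0% of the second class lower and 26.6% of the brightest class higher in Ind-8 against tI-3. It called 29.3% of the brightest class lower in tI-3 against Con-3, and Fzd2, Lgr4, Rspo2 and Sfrp2 were among these, whereas Lgr6, of the third class, was higher and Fzd3, of the dimmest class, was lower. Some measures of the arrays themselves also moved with the line. The standard deviation of the log2 values of an array was 2.42, 2.41 and 2.38 in Ind-8, 2.40, 2.38 and 2.34 in Con-3, and 2.31 and 2.26 in tI-3. The 3′ minus 5′ log2 difference of the actin control rows, a measure of RNA integrity and labelling, was 0.19, 0.14 and 0.16 in Ind-8, 0.12, 0.14 and 0.11 in Con-3, and 0.06 and 0.07 in tI-3. The same difference of the Gapdh control rows did not separate the lines. It was -0.109, -0.198 and -0.215 in Ind-8, -0.213, -0.195 and -0.184 in Con-3, and -0.205 and -0.206 in tI-3. The part of these measures and of the level dependence in the Wnt changes was not tested.

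**Figure D4:**
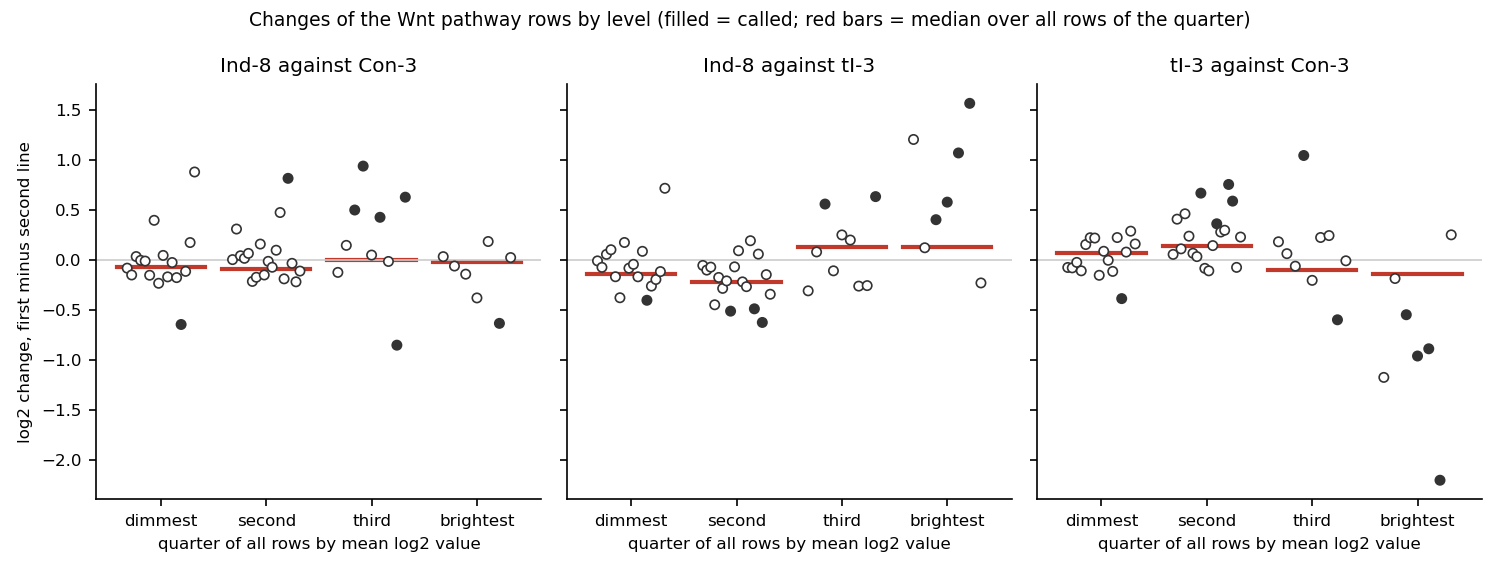
The log2 change (y axis) of each of the 50 Wnt genes is plotted by its class of mean log2 value among all rows, from dimmest to brightest (x axis), with filled circles for called changes and red bars at the median of all rows of the class. These medians run in Ind-8 against tI-3 from -0.14 and -0.22 in the dimmer classes to 0.13 and 0.13 in the brighter ones.

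A list of 55 other pathway genes, for secretion, further receptors, the destruction complex, nuclear cofactors and planar polarity, had 53 rows of 51 genes. Limma called 8 higher and 8 lower in Ind-8 against Con-3, 15 and 7 in Ind-8 against tI-3, and 6 and 10 in tI-3 against Con-3, with median log2 changes of -0.07, 0.05 and -0.11. Beside the shares of all rows these are 15.1% and 15.1% against 10.8% and 10.2%, 28.3% and 13.2% against 15.9% and 14.8%, and 11.3% and 18.9% against 10.3% and 15.6%. The largest called changes in Ind-8 against Con-3 were of the planar polarity genes Prickle2 (1.56, limma adjusted p 0.000113) and Prickle1 (1.00, 0.00224) and of the co-receptor Ptk7 (0.79, 0.000498), each higher on all 3 Ind-8 arrays than on any Con-3 array. Those in Ind-8 against tI-3 were of the glypican Gpc4 (1.13, limma adjusted p 0.000313), the corepressor Tle2 (1.02, 0.00563) and Porcn (1.01, 0.00115), the enzyme that attaches the lipid of Wnt ligands. Those in tI-3 against Con-3 were of Wls, the carrier that takes Wnt ligands to the cell surface (-1.46, limma adjusted p 2.83e-05), Prickle2 (1.09, 0.00132) and Prickle1 (0.96, 0.0041). Without tI-3 replicate 2 the limma adjusted p of Tle2 was 0.0595, and in the control-block fit it was 0.148 for Tle2, 0.0504 for Porcn and 0.065 for Prickle1 in tI-3 against Con-3.

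A list of 25 genes known as targets of beta-catenin and TCF in some tissue had 27 rows. Of all rows, limma called 10.8% higher and 10.2% lower in Ind-8 against Con-3, 15.9% and 14.8% in Ind-8 against tI-3, and 10.3% and 15.6% in tI-3 against Con-3. Of this list it called 3 higher and 3 lower in Ind-8 against Con-3 (11.1% each), 5 and 5 in Ind-8 against tI-3 (18.5% each), and 4 and 6 in tI-3 against Con-3 (14.8% and 22.2%). The counts are not read as a result about the list, whose median log2 changes were 0.01, -0.06 and 0.08. The largest in Ind-8 against Con-3 were Birc5 (-1.06, limma adjusted p 9.83e-05), Msx2 (0.86, 0.00146) and Myc (-0.54, 0.0198). In Ind-8 against tI-3 they were Msx2 (1.75, limma adjusted p 5.63e-05), Bambi (1.67, 0.000949) and Fosl1 (-0.90, 0.00796). In tI-3 against Con-3 they were Bambi (-1.38, limma adjusted p 0.00221), Fosl1 (0.96, 0.00549) and Id2 (0.92, 0.0207). The Myc call was lost without Ind-8 replicate 2 or 3 or Con-3 replicate 1 or 3 and in the control-block fit (limma adjusted p 0.0504 to 0.0806). Without tI-3 replicate 1 the limma adjusted p of Fosl1 was 0.0628 in Ind-8 against tI-3 and 0.0542 in tI-3 against Con-3. Id2 was lost without Con-3 replicate 2 or 3 or tI-3 replicate 1 or 2 (limma adjusted p 0.0515 to 0.146). In each of these changes the arrays of both lines did not overlap. In the control-block fit of Ind-8 against tI-3 the limma adjusted p was 0.113 for Bambi and 0.11 for Fosl1.

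The labels were checked on the genes that p53 and the constructs concern. Cdkn1a, a direct p53 target, read 9.70, 9.70 and 9.59 in Ind-8, 5.73, 5.81 and 6.03 in Con-3, and 7.55 and 7.33 in tI-3. The 3 lines were far apart, with Ind-8 the highest and tI-3 between. The log2 change was 3.81 in Ind-8 against Con-3 (limma adjusted p 1.7e-08), 2.22 in Ind-8 against tI-3 (3.37e-06) and 1.59 in tI-3 against Con-3 (1.6e-05). The p53 targets Ccng1 (2.91, 1.24 and 1.67) and Mdm2 (2.00, 1.28 and 0.72) changed in the same directions, and limma called each of these changes, with none lost when an array was left out. Of the 8 rows of label checks, limma called 4 higher and 1 lower in Ind-8 against Con-3, 3 higher in Ind-8 against tI-3, and 4 higher and 1 lower in tI-3 against Con-3. These are 50% and 12.5%, 37.5%, and 50% and 12.5%, beside 10.8% and 10.2%, 15.9%, and 10.3% and 15.6% of all rows. Trp53 was higher in Ind-8 than in Con-3 by 0.53 (limma adjusted p 0.0018) and in tI-3 than in Con-3 by 0.39 (0.0141, 0.106 without tI-3 replicate 2 and 0.101 in the control-block fit). Impdh2 read 12.16, 12.19 and 12.22 in Ind-8, 12.51, 12.56 and 12.53 in Con-3, and 12.34 and 12.38 in tI-3. The 3 lines did not overlap, and tI-3, the line with the IMPDH II cDNA, lay between the others and below Con-3. Impdh2 was lower in Ind-8 than in Con-3, at -0.34 (limma adjusted p 0.0112), and was not called in Ind-8 against tI-3 (-0.17, limma adjusted p 0.163) or tI-3 against Con-3 (-0.17, limma adjusted p 0.179), so this row shows no excess in tI-3. Mt2 was lower in tI-3 than in Con-3, at -0.39 (limma adjusted p 0.0242), a call lost without Con-3 replicate 2 or tI-3 replicate 2, after quantile normalization and in the control-block fit (limma adjusted p 0.0854 to 0.288). Whether the probes of Trp53 and Impdh2 also read the introduced cDNAs cannot be told from the files.

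Cell type markers were read against the label of fetal fibroblasts. The 12 fibroblast rows averaged 9.67, 9.90 and 9.89 in Ind-8, 9.52, 9.66 and 9.71 in Con-3, and 9.26 and 9.22 in tI-3, with Vim the brightest at 13.89 and 1 of the 12 near background in all 3 lines. Of all rows, limma called 10.8% higher and 10.2% lower in Ind-8 against Con-3, 15.9% and 14.8% in Ind-8 against tI-3, and 10.3% and 15.6% in tI-3 against Con-3. Of the 12 fibroblast rows it called 2 higher and 1 lower (16.7% and 8.33%), 6 and 1 (50% and 8.33%), and 3 and 4 (25% and 33.3%) in the same order. The largest in Ind-8 against Con-3 were Fn1 (0.70, limma adjusted p 0.000292), Pdgfrb (0.38, 0.00985) and Thy1 (-0.30, 0.0458), and leaving out any of the 8 arrays lost the call of Thy1 (limma adjusted p 0.0524 to 0.153). In Ind-8 against tI-3 they were Col3a1 (2.42, limma adjusted p 0.00121, and 0.0546 in the control-block fit), Pdgfra (1.51, 0.000432) and Col1a1 (1.49, 0.000846). In tI-3 against Con-3 they were Col3a1 (-2.68, limma adjusted p 0.000574), Col1a1 (-1.06, 0.00448, lost without tI-3 replicate 1) and Pdgfra (-1.04, 0.00284). The rows called higher there were Thy1 (0.37, limma adjusted p 0.0269), Pdgfrb (0.33, 0.0295) and Fn1 (0.28, 0.0474). In the control-block fit these calls were lost (limma adjusted p 0.0516 to 0.278). Thy1, with means near background in Ind-8 (3.88) and Con-3 (4.19), was the row called lower in Ind-8 than in tI-3 (-0.67, limma adjusted p 0.00149).

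The 7 smooth muscle rows, several of them of genes that activated fibroblasts express as well, averaged 8.94, 8.73 and 9.03 in Ind-8, 8.97, 8.61 and 8.91 in Con-3, and 7.17 and 7.19 in tI-3. The other 6 arrays were far above those of tI-3. Acta2 was the brightest at 13.86, and 1 of the 7 was near background in all 3 lines. Limma called 4 higher (57.1%, beside 15.9% of all rows) and 1 lower (14.3%, beside 14.8%) in Ind-8 against tI-3, with Actg2 (4.95, limma adjusted p 3.84e-06), Cnn1 (3.70, 3.84e-06) and Tagln (3.01, 5.03e-06) the largest. It called 5 lower (71.4%, beside 15.6% of all rows) in tI-3 against Con-3, with Actg2 (-4.29, limma adjusted p 6.24e-06), Cnn1 (-3.37, 4.66e-06) and Tagln (-2.75, 5.59e-06) the largest. In Ind-8 against Con-3 it called Myocd lower (-0.58, limma adjusted p 0.0197), which was lost without Ind-8 replicate 1 or 2 or Con-3 replicate 1 (limma adjusted p 0.0553 to 0.0789). The row called lower in Ind-8 than in tI-3 was Myh11, near background in all 3 lines, at 3.59, 3.52 and 3.55 in Ind-8 and 3.89 and 3.92 in tI-3 (-0.35, limma adjusted p 0.0498). That call was lost without any of the Ind-8 or tI-3 arrays or Con-3 replicate 2 (limma adjusted p 0.0682 to 0.196), after quantile normalization, with control rows kept and in the control-block fit (limma adjusted p 0.835 in the last). Des also had its highest mean in tI-3, at 6.22 against 5.93 in Ind-8 and 6.04 in Con-3. Actg2, Cnn1 and Tagln were low in tI-3, as were Sfrp2, Rspo2, Fzd2 and Lgr4, and the part of this difference in the Wnt changes was not tested.

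Markers of cell types that the cultures should lack were near background in part. Of all rows, 21.1% were near background in all 3 lines. Of 8 epithelial rows 3 were near background in all 3 lines, of 6 endothelial rows 4, of 5 blood rows 3 and of 9 neural rows 2, and the brightest were Krt19 (9.78), Kdr, Cd3e (5.45) and Nes (6.70). The epithelial rows averaged 4.77 to 5.13 over the arrays, the endothelial rows 4.25 to 4.57, the blood rows 4.18 to 4.51 and the neural rows 4.50 to 4.76. In every change of these lists named here the arrays of both lines did not overlap. Krt19 was called higher in Ind-8 than in Con-3 (0.82, limma adjusted p 0.00528) and than in tI-3 (1.04, limma adjusted p 0.0027), the only epithelial calls, and both held with each array left out. Nes was lower in Ind-8 than in Con-3 (-0.45, limma adjusted p 0.0188), which was lost without Ind-8 replicate 1 or Con-3 replicate 2 (limma adjusted p 0.0681 to 0.0774). Kdr was lower in Ind-8 than in tI-3 (-0.76, limma adjusted p 0.000836), which held with each array left out, and higher in tI-3 than in Con-3 (0.44, limma adjusted p 0.0129), which was lost without Con-3 replicate 2 or tI-3 replicate 2 (limma adjusted p 0.0507 to 0.121). Kdr in Ind-8 against Con-3 (-0.32, limma adjusted p 0.0385) was lost without any of the Ind-8 arrays, Con-3 replicate 1 or Con-3 replicate 3 (limma adjusted p 0.0518 to 0.126), and with an intensity trend in the prior of limma. Vwf in tI-3 against Con-3 (0.49, limma adjusted p 0.0447) was lost without any of the Con-3 or tI-3 arrays. This call was also lost with the replicate number as a block and after quantile normalization.

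Cd3e was lower in Ind-8 than in tI-3 (-0.43, limma adjusted p 0.0109) and higher in tI-3 than in Con-3 (0.42, limma adjusted p 0.0129), and without tI-3 replicate 2 limma gave an adjusted p of 0.109 and 0.130. Adgre1 was lower in Ind-8 than in tI-3 (-0.36, limma adjusted p 0.0324), which was lost without any of the Ind-8 or tI-3 arrays (limma adjusted p 0.0639 to 0.166). Sox10 was lower there as well (-0.48, limma adjusted p 0.0168), which was lost without Ind-8 replicate 2 or tI-3 replicate 2 (limma adjusted p 0.0522 to 0.136). Rbfox3 was also lower (-0.29, limma adjusted p 0.0457), and leaving out any array but Ind-8 replicate 3 lost this call (limma adjusted p 0.0526 to 0.197). Tubb3 was higher in Ind-8 than in tI-3 (0.39, limma adjusted p 0.0359). That call was lost without Ind-8 replicate 1 or 3, Con-3 replicate 2 or tI-3 replicate 1 or 2. It was also lost with the replicate number as a block and with arrays centred on the median. Tubb3 was lower in tI-3 than in Con-3 (-0.52, limma adjusted p 0.0103), a call lost without tI-3 replicate 1. Of all these changes of cell types that the cultures should lack, Krt19 and Nes in Ind-8 against Con-3 and Tubb3 in tI-3 against Con-3 alone held in the control-block fit, where limma gave the others an adjusted p from 0.074 to 0.642. Their part in the Wnt changes was not tested.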

How the data were processed

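The deposited values, log2 RMA summaries of 8 Affymetrix mouse arrays, come from the authors, who processed the scanner data by RMA with probes grouped by RefSeq transcript, and were used without further normalization. The labels call the arrays of a line biological replicates. The 64 control rows were left out and rows with identical values (to 6 decimals) counted once, which left 18172 of 22587 rows. The means of the 3 lines were fitted over all arrays with limma 3.58.1 (R 4.3.3), with Benjamini-Hochberg adjustment over all rows and a call at an adjusted p under 0.05. Symbols came from RefSeq gene names and matched 18294 rows (81.2%). Counts and figures were made in Python 3.11.15 with numpy 2.4.6, pandas 2.3.3 and matplotlib 3.10.9. An array has no sequencing depth, and the number of arrays and the level above the dim end limit the precision.

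Values in every array were given for members called with an absolute log2 change of at least 0.5 and a mean not near background in at least 1 line, for Lgr4, Lgr5, Lgr6, Axin2 and Ctnnb1, and for the brightest row of each role. Other called members were named, and for the other lists the 3 called rows with the largest change in each comparison. A result of this kind that is withheld is not reported here. The rule for members uses names alone, but the rule and the lists were set with earlier results of these data known. Of the listed genes, Bcl9, Cd68, Hba-a1, Hbb-b1, Kremen2, Tnik and Vangl1 matched no row.

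Alternatives were the rank product test, re-implemented, with 100 permutations of the rows within each array and a percent false positive under 0.05; limma with a minimum log2 change of 1, on the compared groups only, with arrays blocked by replicate number or by their hybridization-control level, or with an intensity trend; rows above the 25th percentile; identical rows, control rows or 1 row per gene kept; arrays centred or quantile-normalized again; the 40th percentile for background; and each array left out in turn. The methods were tested on simulated data.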

Additional observations from a re-analysis of the deposited data

Results flagged for a closer look

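The 18S ribosomal RNA control rows of the arrays, which enter no comparison, averaged 10.63 on Con-3 replicate 3 and 5.58 to 6.46 on the other 7 arrays. They drew attention as a signal outside the main measurement that was far above its level on any other array, those of Con-3 included. Without this array, 28 of the 29 called changes of Wnt genes kept their call. For the 10 calls in Ind-8 against tI-3 the array enters only the shared estimate of the spread, so leaving it out tests little there. The cause of the signal was not tested.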

How the results depend on the processing

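All 29 called changes of Wnt genes kept their direction in each of the 20 settings tried. For Ind-8 against Con-3 the control-block fit and the fit without Con-3 replicate 3 are the same. All 29 kept their call on the compared groups only, with the replicate block, with an intensity trend, with identical rows, control rows or 1 row per gene kept. Of the 29, 27 kept it with arrays centred, 23 with arrays quantile-normalized, 14 in the control-block fit, 4 with a minimum log2 change of 1 and 4 by the rank product. Above the 25th percentile all 26 that could be tested kept it. Without 1 array, from 16 (tI-3 replicate 2) to 28 kept it.

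In Ind-8 against Con-3, 5 genes were higher and 3 lower, against 1 and 1 by the rank product and 0 and 0 with a minimum change of 1. Leaving out 1 array gave 5 to 7 higher and 3 to 4 lower. In Ind-8 against tI-3, 6 were higher and 4 lower, against 2 and 0 by the rank product, 2 and 0 with the minimum change, and 1 and 0 in the control-block fit. The number lower was 8 with arrays centred, where Fzd3, Fzd6, Fzd9 and Sfrp4 were called besides. Leaving out 1 array gave 2 to 7 higher and 0 to 5 lower. In tI-3 against Con-3, 5 were higher and 6 lower, against 0 and 2 by the rank product, 1 and 1 with the minimum change, and 2 and 3 in the control-block fit. Leaving out 1 array gave 2 to 7 higher and 4 to 7 lower. With a tI-3 array left out that line has 1 array. The causes of the other differences were not tested. These counts stand without the shares of all rows in the same settings, so they are not read as a result about the Wnt genes. The number near background in all 3 lines was 11 at the 25th and 26 at the 40th percentile, a wider limit by construction.

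With the replicate number as a block, 7 were higher and 4 lower in Ind-8 against Con-3, 7 and 8 in Ind-8 against tI-3, and 5 and 7 in tI-3 against Con-3. The share of all rows called with this block is not given, so a gain in calls is not read as particular to the Wnt genes. Not called without the block but called with it were Fzd2, Rspo1 and Lef1 in Ind-8 against Con-3, Dkk3 in both comparisons with tI-3, and Wnt9b, Fzd6, Sfrp4 and Sfrp5 in Ind-8 against tI-3 (limma adjusted p 0.0103 to 0.0493). The uncalled change of Wnt9b, -0.21, had the opposite sign in the control-block fit, at 0.14, and the cause was not tested. Across rows, deviations from the line mean correlated at 0.256, 0.024 and 0.367 between Ind-8 and Con-3 arrays of the same number. Between Ind-8 and Con-3 arrays of different numbers the correlation was -0.401 to 0.127. Pairs of the same number with a tI-3 array gave -0.232 to 0.215. The deviations of both tI-3 arrays are opposite by construction, so each value with tI-3 recurs with the opposite sign. Whether the number pairs the arrays was not tested.

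The lines are 1 clone each, with 2 or 3 arrays. Both tI-3 arrays share the high hybridization controls with Con-3 replicate 3 alone, so the control-block fit rests on few arrays by construction. Changes with a line near the limit of 4.29, as for Fzd3 and Wnt16, involve the dim end of the arrays, where a fall in RNA shows little. Rows share no scale between genes, and proteins were not analysed here.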
